A study of Mus musculus with 8 samples.

Results

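Axon guidance ligands and receptors were read in 8 mouse tumours from a table of 22180 genes. The members were all genes of the semaphorin (Sema), plexin (Plxn), ephrin (Efna, Efnb) and Eph receptor (Epha, Ephb) families with a probe set of their own, the 3 Slit genes, Robo1, Robo2, Robo3, the netrins Ntn1 and Ntn4, Dcc, and the 4 Unc5 genes. This name rule gave 64 genes, of which 33 encode ligands or ligand-type semaphorins, 30 encode receptors, and 1, Plxna4os1, is an antisense transcript that the rule takes in by its name. The rule picks genes by name and not by a measured value, but the members were chosen with earlier results of these data known. Each gene was read from 1 probe set, that with the highest mean level, and Ephb2 is not analysed here.

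The tumours were primary, subcutaneous and derived from mouse neural crest cells (NCCs) transduced with N-Myc, the MYC family transcription factor whose gene is amplified in high-risk human neuroblastoma. The transduced cells were a mixture of p53+/- and p53-/- cells (N-Myc; p53mixed), about 10000 of them were injected 48 hours after infection into nude or C57Bl/6 mice, and tumours were removed after about 50 days. All 8 tumours share this label, so they form 1 group (n = 8). The labels do not say which host, which p53 genotype or which infection each tumour had, or that each came from a separate mouse or culture, so p-values cover only the spread between these arrays, which may in part be technical. Total RNA of each tumour was hybridised to 1 Affymetrix array, and the number of arrays limits the precision.

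Semaphorins, ephrins, Slits and netrins are cues that steer growing axons and migrating cells, neural crest cells among them. Class 3 semaphorins are secreted and act through plexins, mostly with a neuropilin as coreceptor, while the other vertebrate classes are mainly membrane bound and reach plexins directly. Ephrins bind Eph receptor tyrosine kinases on neighbouring cells and can signal in both directions. Slits repel axons through Robo receptors, and netrins attract through Dcc and repel through Unc5 receptors. Dcc and Unc5 proteins are also known as dependence receptors, which can promote cell death when netrin is absent, and several of these families guide vessels as well as axons.

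All the tumours carried introduced N-Myc, which binds DNA as a dimer with Max at E-boxes, and the core E-box CACGTG was therefore looked for in the 250 bases before the annotated start sites of the members. RefSeq promoters on GRCm38.p6 were found for 53 of the 64 genes. The motif reads the same on both strands. It was present for 4 of these 53 genes (7.55%), beside 6.86% of all 27025 genes with a promoter in the same table. Counted by promoter, it was in 5.80% of the member promoters and 6.02% of all promoters. The stretches around it are shown for these 4 genes with the E-box in capitals, 5′ to 3′ on the strand of the gene. No binding was measured, and a match is a description of the letters.
Epha8, chr4:136956923-136957000, minus strand, outside the gene: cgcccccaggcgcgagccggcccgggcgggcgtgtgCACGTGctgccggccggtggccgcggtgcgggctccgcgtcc
Robo2, chr16:75447294-75447323, minus strand, within the gene's longest annotated extent: tcaggctcgcctCACGTGgggaggagggag
Sema4b, chr7:80198474-80198503, plus strand, within the gene's longest annotated extent: ggtgcggcggccCACGTGaccaccttccct
Sema6d, chr2:124089934-124089963, plus strand, overlapping the gene's annotated start: cgagcgcagaagCACGTGggctaagggggt
All 4 genes were detected in the tumours, as were 54 of the 64 members (84.4%). Epha8 and Robo2 had a large SD over the tumours by the rule given below, as had 26 of the 54 detected members (48.1%). Any relation of the motif with these levels was not tested. Values are given below in the order of the families.

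The series asks in its title whether MYCN gives rise to neuroblastoma in neural crest cells, and the first comparison asks which guidance genes the tumours expressed. Most of them lay above the background of the arrays. A gene was called detected when its mean log2 level over the tumours was above the background of the same arrays, which is the 95th percentile of probe sets for odorant, pheromone and bitter taste receptors, with an adjusted p under 0.05 (limma, Benjamini-Hochberg over all genes). By this rule 54 of the 64 members were detected (84.4%), beside 57.3% of all genes. The share of all genes, here and below, includes the receptor genes that set the background, which lowers it. The median height above background was 1.63 for the members and 0.68 for all genes on the log2 scale. Of the 54 detected members, 52 were above background on all 8 arrays. The count was 54 again without any single tumour. It depends on the background level chosen, with 59 members at the 90th percentile of the receptor probe sets (68.2% of all genes), 34 at the 99th (41.9%) and 64 at the median (90.9%). The 20 members that lost their call at the 99th percentile were Sema3g, Sema4a, Sema4f, Sema5a, Sema5b, Sema6b, Plxnc1, Efna1, Epha3, Epha8, Epha10, Ephb1, Ephb4, Ephb6, Ntn1, Ntn4 and the 4 Unc5 genes. These are whole tumours, so fewer cells of a type and less RNA per cell cannot be told apart in any value below. Levels of different genes come from different probes and are not compared with each other.

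**Figure D1:**
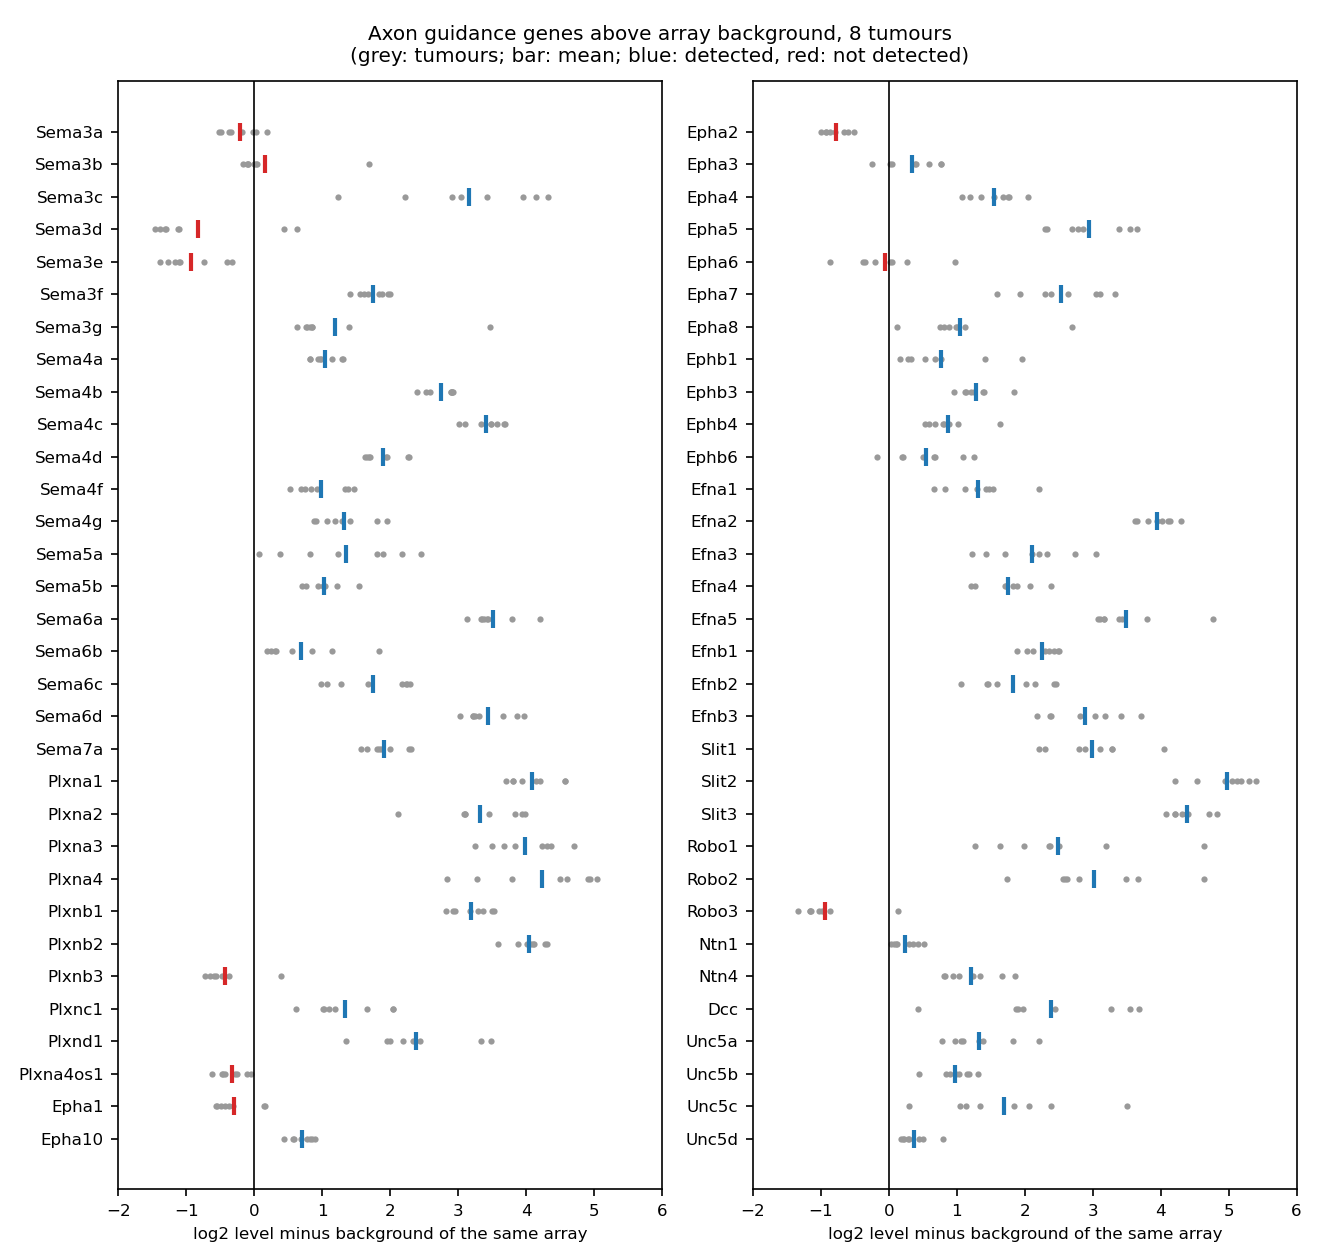
Height of the log2 level above the background of each array (x axis) for each of the 64 genes (y axis), ordered by family. Grey points are the 8 tumours, bars are means, blue for the 54 detected genes and red for the 10 that were not detected. The Slit, class 4 semaphorin, ephrin and netrin means all lie to the right of 0, while 4 of 7 class 3 semaphorins do not pass the test.

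The defining markers of the cell types that could hold these genes were mixed. All 8 measured sympathetic neuron markers and all 8 general neuronal markers were detected, as were 8 of 10 endothelial, 11 of 12 macrophage, 10 of 11 fibroblast and pericyte, 6 of 8 Schwann cell and glia, and 5 of 8 skeletal muscle markers. The markers not detected were Tek, Cldn5, Cd14, Lum, Gfap, S100b, Myh4, Pygm and Myod1. Detection is judged on the mean over the tumours, and some of these were high in 1 tumour. Gfap was at 10.71 in tumour 4 (5.93 or less elsewhere) and S100b at 6.20 (5.08 or less). Myh4 and Pygm were at 8.96 and 8.32 in tumour 6 (5.68 and 7.41 or less elsewhere). The marker means given here leave out the undetected genes. Tumour 6 stood apart in the sympathetic markers, whose mean, with each gene centred on its own mean over the tumours, was -2.07 there and between -0.23 and 0.61 elsewhere. The markers lay unequally low in it: Tfap2b was at 4.88 beside a mean of 10.43 over the tumours and Dbh at 5.72 beside 10.15, but Chga at 10.20 beside 10.74. Tumour 6 also had the lowest mean of the general neuronal markers (-0.52) and the highest mean of the 5 detected skeletal muscle markers (1.51), and the part of these cells in the guidance genes that were extreme in it was not tested. The mean of the 6 detected Schwann cell and glia markers was 1.64 in tumour 4 and 1.42 in tumour 6, and between -0.97 and 0.09 in the other tumours.

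The second comparison asks how far each gene differed between the tumours. With no technical replicates this was described by the SD of the log2 levels over the 8 tumours, and it was called large above 0.41, which only 1% of the odorant, pheromone and taste receptor genes exceeded. Of the 54 detected members 26 had a large SD (48.1%), beside 14.6% of all detected genes. The median SD was 0.39 for the detected members and 0.23 for all detected genes. Without tumour 6 the number of members with a large SD was 21, and without tumour 8 it was 23. Above the 95th percentile of the receptor genes were the SDs of 37 members, beside 28.6% of all detected genes. An SD of at least 1 was found for Dcc, Sema3c and Robo1, which is 5.56% of the detected members beside 1.23% of all detected genes.

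**Figure D2:**
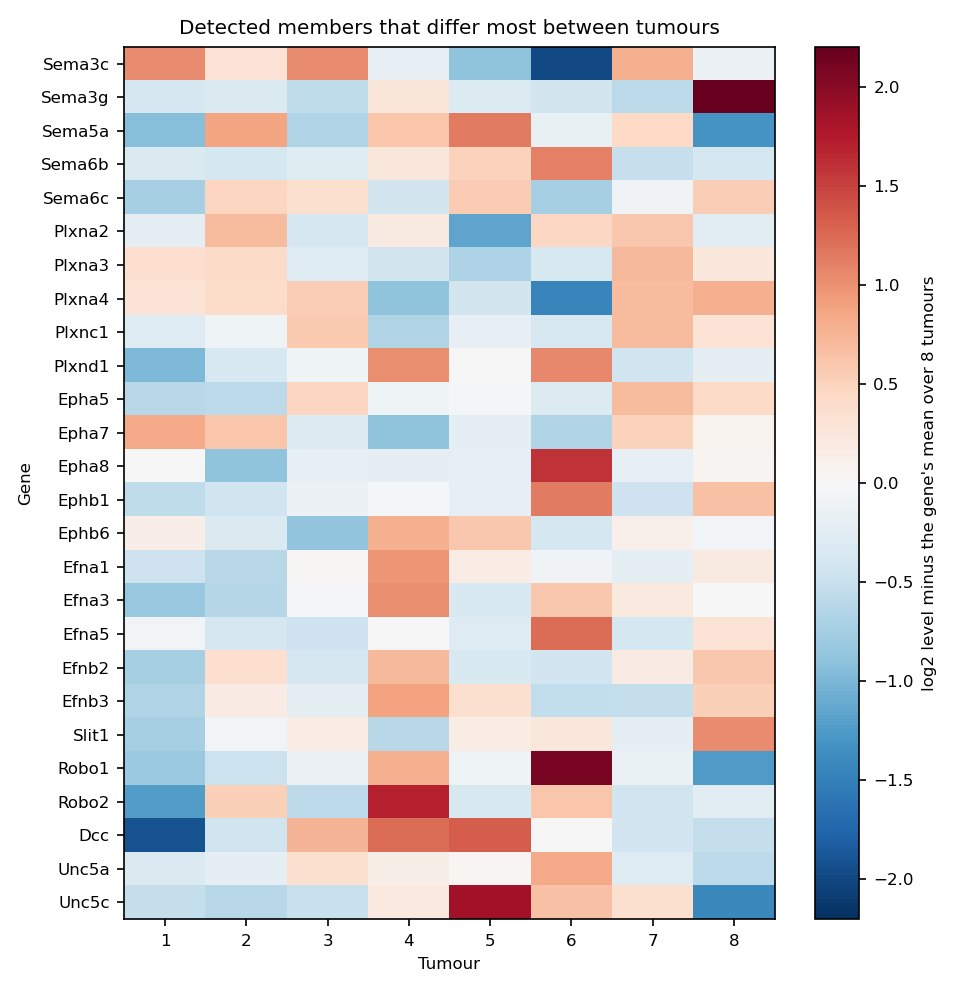
Log2 level minus the mean of the gene over the 8 tumours (colour) for the 26 detected genes with a large SD (rows, by family) in each tumour (columns). Red is above and blue below the mean of the gene. Robo1 is highest in tumour 6, Robo2 in tumour 4, Sema3g in tumour 8 and Unc5c in tumour 5, and Sema3c is lowest in tumour 6.

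Class 3 semaphorins, the secreted class, divided into detected and undetected genes. Of 7 measured, only Sema3c, Sema3f and Sema3g passed the detection test. Sema3c, which guides migrating cardiac neural crest, ran from 6.76 in tumour 6 through a median of 8.84 to 9.78 in tumour 1 (8.75 ± 1.04, mean ± SD, n = 8). Tumours 1, 3 and 7 were the high ones for Sema3c (9.78, 9.78 and 9.54), and tumour 5 was the lowest after tumour 6 (7.86). Its height above background was 3.16 ± 0.33 (SE; limma, adjusted p = 6.07e-06). Sema3g, known from arterial endothelium, was at 9.04 in tumour 8, while its median over all tumours was 6.43 and its lowest level 6.21, in tumour 7. The other 7 tumours lay between 6.21 and 7.05, and the SD of Sema3g was 0.95 with tumour 8 and 0.28 without it. With the background at the 99th percentile its detection call was lost (limma, adjusted p = 0.559). The endothelial marker mean was 0.01 in tumour 8 and between -0.66 and 0.71 over all tumours. Its relation with Sema3g over all 8 tumours did not pass (r = 0.17, exact permutation, adjusted p = 0.813). The part of endothelium in the Sema3g level of tumour 8 alone was not tested. Sema3f, a repellent that acts through neuropilin 2, varied little (7.33 ± 0.21).

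The 4 class 3 genes that were not detected were Sema3a, Sema3b, Sema3d and Sema3e. Of these, Sema3b, Sema3d and Sema3e were higher in tumour 4, or in tumours 4 and 6, than in the rest. Sema3b was at 7.35 in tumour 4 and between 5.34 and 5.63 in the other 7, which is about the background of the arrays (5.45 to 5.66). Sema3d, known from heart and vessel development, reached 6.10 and 6.17 in tumours 4 and 6, while the other 6 lay between 4.11 and 4.45, below background. Sema3e was at 5.34 and 5.13 in tumours 4 and 6 and was below background in every tumour. Tumours 4 and 6 are those with the high mean of Schwann cell and glia markers, though not every marker was high in both. Pou3f1 was at 5.90 in tumour 4 beside a mean of 6.44 over the tumours, and Pmp22 at 7.55 in tumour 6 beside 7.74. Sema3b was high in tumour 4 only, with 5.56 in tumour 6. The part of these cells in the Sema3b and Sema3d levels was not tested. Sema3a, the classical repellent of sympathetic and sensory axons, stayed between 5.12 and 5.73 and was above background on 2 arrays (mean height above background -0.21, limma, adjusted p = 0.0288).

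All 6 class 4 semaphorins, membrane proteins that act on plexin B receptors among others, were detected, and none had a large SD. Their SDs ran from 0.18 (Sema4a) to 0.40 (Sema4g). Sema4g, the most variable, lay between 6.42 in tumour 6 and 7.53 in tumour 7 with a median of 6.83 (6.90 ± 0.40, n = 8). Sema4b, one of the genes with an E-box in the promoter stretch shown above, was at 8.34 ± 0.23.

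The 7 semaphorins of classes 5 to 7 were detected too, and Sema5a, Sema6b and Sema6c among them had large SDs. Sema5a, a membrane protein with thrombospondin repeats, was at 5.65 in tumour 8, 7.08 in the median and 8.09 in tumour 5 (6.94 ± 0.90). It was high in tumours 2, 4, 5 and 7 (7.38 or more) and low in tumours 1, 3 and 8 (6.28 or less). It was detected (limma, adjusted p = 0.000707), but not with the background at the 99th percentile (limma, adjusted p = 0.253). Sema6b was highest in tumour 6 (7.37) and Sema6c highest in tumour 5 (7.88), close to tumour 8 (7.87). Sema6a (9.09 ± 0.32), Sema6d (9.03 ± 0.36), both ligands of class A plexins, and Sema7a, a lipid-anchored semaphorin (7.50 ± 0.21), differed less. The SD of Sema6a was 0.18 without tumour 8, its highest (9.77).

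Of the 9 plexins, the semaphorin receptors, 8 were detected, with a median height above background of 3.33 over the 9. Plxna4, a receptor for Sema3a signals in sympathetic and sensory neurons, ran from 8.37 in tumour 6 through a median of 10.18 to 10.61 in tumour 8 (9.82 ± 0.82). Tumours 4, 5 and 6 were the low ones for Plxna4 (8.94, 9.42 and 8.37), and the other 5 lay between 10.13 and 10.61. Plxnd1, a plexin of endothelium that binds Sema3e, showed another order. Tumours 6 and 4 were high, with 9.02 in tumour 6, the median was 7.83 and tumour 1 was lowest with 6.98 (7.97 ± 0.71). The other 6 tumours lay at 7.97 or less for Plxnd1. Endothelial markers averaged 0.71, 0.07 and -0.66 in tumours 4, 6 and 1, and the part of vessels in the Plxnd1 levels was not tested. Plxna2, a receptor for class 6 semaphorins, was lowest in tumour 5 (7.76), at 8.92 in the median and highest in tumour 2 (9.62; 8.92 ± 0.62).

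Plxna1 (9.68 ± 0.34), Plxna3 (9.57 ± 0.49), Plxnb1 (8.78 ± 0.25), Plxnb2 (9.63 ± 0.20) and Plxnc1 (6.92 ± 0.48) completed the detected plexins. The SD of Plxnb2 was 0.12 without tumour 1, its lowest (9.21). Plxnb3, a plexin of oligodendrocytes, was not detected: it was at 6.05 in tumour 4 and between 4.90 and 5.27 elsewhere. The antisense transcript Plxna4os1 was below background on all 8 arrays (5.25 ± 0.20). A second probe set was present for Plxna1, with a mean of 6.80, and for Plxnb1, with a mean of 5.71, below the 9.68 and 8.78 of the probe sets used.

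The ephrins were detected in full, 5 of 5 ephrin-A and 3 of 3 ephrin-B genes. Ephrin-A ligands are lipid-anchored and ephrin-B ligands span the membrane. Efna3 ran from 6.85 in tumour 1 through a median of 7.67 to 8.71 in tumour 4 (7.69 ± 0.61), with tumour 6 next at 8.28. Efna5, which repels retinal axons, was at 10.31 in tumour 6 and between 8.61 and 9.37 in the other 7, with an SD of 0.56 that was 0.27 without tumour 6. Efna1 was highest in tumour 4 (7.87), and its SD of 0.48 was 0.30 without that tumour. Efnb3, a midline barrier for spinal axons, was lowest in tumour 1 (7.81), at 8.46 in the median and highest in tumour 4 (9.36; 8.47 ± 0.57). Efnb2, the arterial ephrin, followed with its highest levels in tumours 4 and 8 (8.12 and 8.01) and its lowest in tumour 1 (6.69). Efna2 (9.54 ± 0.24), Efna4 (7.34 ± 0.38) and Efnb1 (7.84 ± 0.21) varied less.

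Eph receptors, the kinases that bind ephrins, were detected for 6 of 9 EphA and 4 of 4 EphB genes. Epha7 ran from 7.24 in tumour 4 through a median of 8.06 to 8.95 in tumour 1 (8.12 ± 0.62). Its low tumours were 4 and 6 (7.24 and 7.46). Epha8, whose promoter stretch with an E-box is shown above, was at 8.22 in tumour 6, while its median was 6.45 and its lowest level 5.75 in tumour 2. The 7 other tumours lay between 5.75 and 6.69, and the SD of Epha8 was 0.70 with tumour 6 and 0.31 without it. It was detected (limma, adjusted p = 0.00121), but not with the background at the 99th percentile (limma, adjusted p = 0.882). Ephb1, a receptor of retinal axons that turn at the chiasm, was at 5.80 in tumour 1, 6.19 in the median and 7.49 in tumour 6, with tumour 8 next at 6.99 (6.35 ± 0.59). Against the 99th percentile Ephb1 lay below background (-0.24; limma, adjusted p = 0.280). A second probe set of Ephb1 gave 6.99 in tumour 6 and 6.69 in tumour 4 (6.13 ± 0.54).

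Epha5 (8.53 ± 0.49), Epha4 (7.14 ± 0.32), Epha10 (6.29 ± 0.22) and Epha3 (5.92 ± 0.35), the last only 0.34 above background (limma, adjusted p = 0.0141), were the other detected EphA genes. Ephb4, the venous partner of Efnb2, was at 7.30 in tumour 4 and between 6.16 and 6.47 elsewhere, and its SD of 0.36 was 0.11 without that tumour. Tumour 4 also had the highest endothelial marker mean (0.71). The relation of Ephb4 with these markers over all 8 tumours did not pass (exact permutation, adjusted p = 0.253). Their part in the Ephb4 level of tumour 4 alone was not tested. Ephb3 was at 6.87 ± 0.27 and Ephb6, whose kinase domain is inactive, at 6.14 ± 0.53. The SD of Ephb3 was 0.16 without tumour 8, its highest (7.42). Epha1 (5.28 ± 0.28), Epha2 (4.80 ± 0.18) and Epha6 were not detected, and Epha6 reached 6.51 in tumour 6 with a mean of 5.52.

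Slits were well above background in all tumours. Slit2 was at 10.55 ± 0.38 and Slit3 at 9.97 ± 0.26 (n = 8), which is 4.97 and 4.39 above background (limma, adjusted p = 1.77e-12 and 1.20e-13). Slit1 varied most, from 7.84 in tumour 1 through a median of 8.62 to 9.61 in tumour 8 (8.57 ± 0.56). Tumours 1 and 4 were low for Slit1 (7.84 and 7.96) and tumour 8 was above the next tumour, at 8.82.

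Their receptors Robo1 and Robo2 were among the most variable members. Robo1 was at 6.84 in tumour 8, 7.95 in the median and 10.18 in tumour 6 (8.08 ± 1.03), with tumour 4 next at 8.86. Without tumour 6 the SD of Robo1 was 0.64. Robo2, with an E-box close to its start site in the stretch shown above, ran from 7.36 in tumour 1 through a median of 8.31 to 10.29 in tumour 4 (8.60 ± 0.91), and tumours 6 and 2 came next at 9.21 and 9.12. Tumours 4 and 6 thus had the highest Robo1 and also the highest Robo2, in opposite order. Robo3, which acts in commissural neurons, was not detected, with 5.67 in tumour 6 and between 4.29 and 4.70 elsewhere.

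Of the netrins, Ntn1 was close to background and Ntn4 was not. Ntn1, the classical attractant, was only 0.24 above it (5.83 ± 0.20; limma, adjusted p = 0.00512) and lay between 5.56 and 6.18. Ntn4, which also binds laminin in basement membranes, was at 6.44 in tumour 1, 6.72 in the median and 7.42 in tumour 8 (6.80 ± 0.37), with tumour 5 next at 7.29. Ntn4 was 1.21 above background (limma, adjusted p = 9.07e-07), and 0.21 with the background at the 99th percentile (limma, adjusted p = 0.142).

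Of the netrin receptors, Dcc, Unc5c and Unc5a had large SDs, and Unc5b and Unc5d did not. Dcc had the largest SD of all members. It was at 6.06 in tumour 1, 7.76 in the median and 9.31 in tumour 5 (7.97 ± 1.08). Tumours 3, 4 and 5 were the high ones for Dcc (8.72, 9.20 and 9.31), and tumour 1 lay well below the next tumour, at 7.44. Its height above background was 2.39 ± 0.34 (SE; limma, adjusted p = 7.22e-05). Unc5c, a repulsive netrin receptor, ran from 5.87 in tumour 8 through a median of 7.14 to 9.13 in tumour 5 (7.28 ± 0.99), with tumour 6 next at 7.92. Its detection call was lost with the background at the 99th percentile (limma, adjusted p = 0.0696). Tumour 5 had the highest Dcc as well as the highest Unc5c. Unc5a was highest in tumour 6 (7.74; 6.92 ± 0.44), Unc5b, known from vessels, varied between 6.07 in tumour 1 and 6.96 in tumour 4 with a median of 6.57 (6.56 ± 0.26), and Unc5d stayed near background (5.95 ± 0.20). The SD of Unc5d was 0.11 without tumour 8, its highest (6.37).

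**Figure D3:**
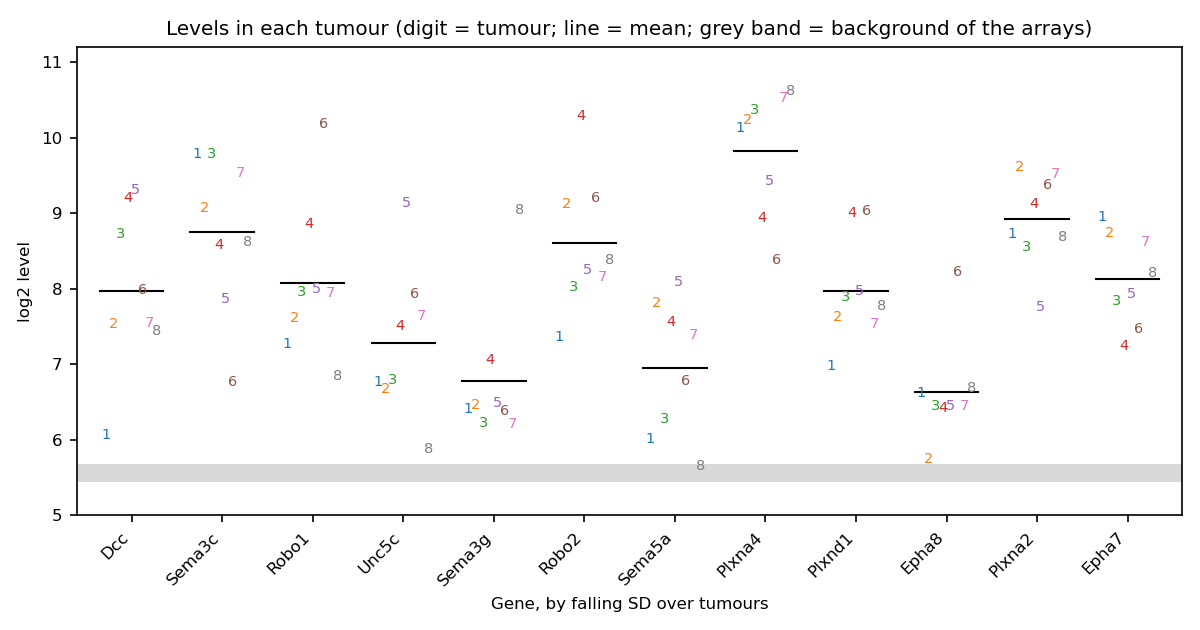
Log2 level (y axis) of the 12 detected genes with the largest SD over the tumours (x axis, by falling SD). Digits mark the tumours, lines the means, and the grey band the range of background over the arrays, 5.45 to 5.66. Single tumours stand apart from the rest for Sema3g (tumour 8, 9.04) and Epha8 (tumour 6, 8.22).

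In 4 of the 54 detected members (7.41%) a single tumour lay apart from the other 7 by Dixon's criterion, beside 6.95% of all detected genes. These were Sema3g, Efna5, Epha8 and Ephb4. The tumours also differed in how many guidance genes had their extremes in them. Tumour 1 had the lowest level of 17 of the 54 detected members (31.5%), beside 14.4% of all detected genes, among them Dcc, Robo2, Plxnd1, Slit1, Efnb2 and Efnb3. It had the highest level of 4 members (7.41%), Efna2, Epha4, Epha7 and Sema3c, near the 7.87% of all detected genes. Tumour 3 had the highest level of 0 of the 54 members, beside 13.7% of all detected genes. Tumours 4, 6 and 8 had the highest level of 11, 10 and 11 members (20.4%, 18.5% and 20.4%), beside 13.3%, 18.3% and 16% of all detected genes. The share in tumour 6 was thus near that of all detected genes. Tumour 7 had the highest level of 8 members (14.8%), beside 9.66% of all detected genes. It had the lowest level of 2 members (3.70%), Sema3g and Sema6b, beside 17.1% of all detected genes. Tumour 1 also had the lowest means of endothelial (-0.66), macrophage (-0.55) and Schwann cell and glia (-0.97) markers. The part of those cells in its low guidance genes was not tested beyond the single relations over all tumours given below.

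**Figure D4:**
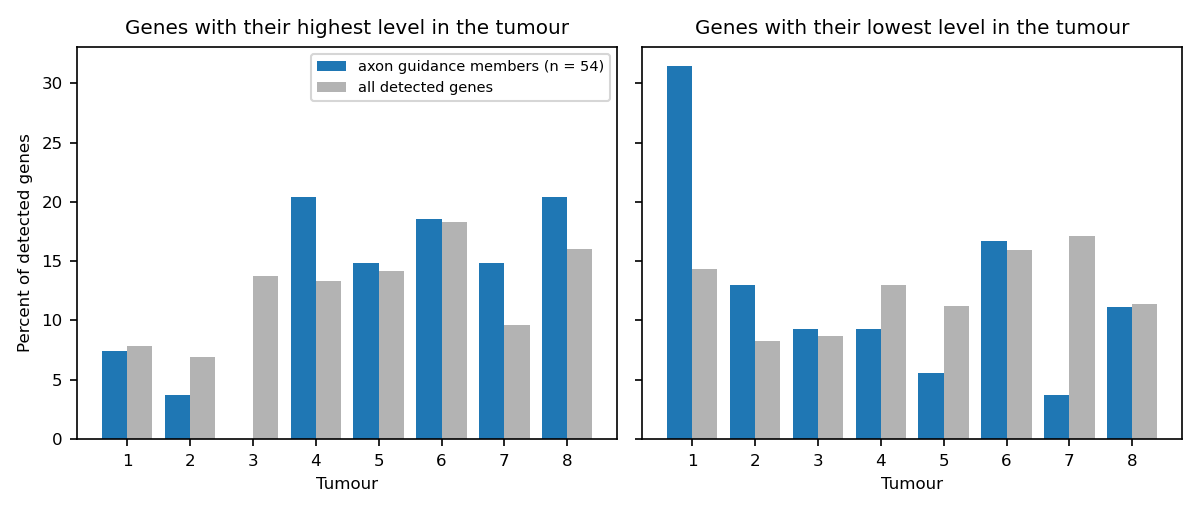
Percent of detected genes (y axis) that had their highest (left) or lowest level (right) in each tumour (x axis), for the 54 axon guidance members and for all detected genes. The tallest bar for the members is the lowest level in tumour 1, 31.5% beside 14.4% of all detected genes.

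Other genes of these pathways were mostly expressed as well. Of 65 listed coreceptors, further ligands and signal transducers 60 had a value. Of these 60, 54 were detected (90%), beside 57.3% of all genes. Not detected were Ntng2, Rnd1, Vav3, Ablim3, Met and Erbb2. With the background at the 99th percentile 40 of the 60 were detected, beside 41.9% of all genes. Both neuropilins, the coreceptors of class 3 semaphorins, were detected. Large SDs were found for 19 of the 54 (35.2%), beside the 14.6% of all detected genes, and their median SD was 0.27. The largest was that of Ntng1, a membrane-anchored netrin relative that does not bind Dcc, with 4.57 in tumour 6, 6.47 in the median and 8.93 in tumour 8. Srgap1 and Srgap3, which act downstream of Robo, were both lowest in tumour 6 (6.73 and 8.37) and highest in tumour 8 (9.58 and 10.61). Robo1 was highest in tumour 6 and lowest in tumour 8, but Robo2 was highest in tumour 4 and lowest in tumour 1. Srgap2 was lowest in tumour 6 (7.73) but highest in tumour 2 (8.54). Relations of these genes with Robo1 or Robo2 were not tested. Draxin, a secreted repellent that binds Dcc, had the same extremes as Srgap1 (5.96 and 8.46). Farp2, an exchange factor in semaphorin signalling, reached 7.49 and 7.31 in tumours 4 and 6, and no other tumour exceeded 6.01.

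The third comparison asks whether ligands and their receptors, or guidance genes and markers of a cell type, differed together over the tumours. Of 18 ligand and receptor pairs 14 were computed, and none passed after adjustment (Pearson's r, exact permutation of 40320 pairings, two-sided, lowest adjusted p = 0.0962). None passed with Spearman's rho either, and an unadjusted exact p under 0.05 was found for 2 of the 14 pairs with r. For Sema6d and Plxna1 r was 0.88 (exact permutation p = 0.00898, adjusted p = 0.0962; Spearman's rho 0.83, exact p = 0.0154, adjusted p = 0.152), and without tumours 7 and 8, the farthest from the median of Sema6d, r was 0.66 (exact p = 0.225, n = 6). For Sema3f and Plxna3 r was -0.82 (exact permutation p = 0.0137, adjusted p = 0.0962; Spearman's rho -0.81, exact p = 0.0218, adjusted p = 0.152), and -0.91 without tumours 5 and 8. Slit2 and Robo1 gave 0.16 (exact permutation p = 0.782, adjusted p = 0.876; Spearman's rho 0.24, exact p = 0.582, adjusted p = 0.752), with 0.38 when tumours 4 and 8 were left out. Ntn1 and Dcc gave 0.32 (exact permutation p = 0.430, adjusted p = 0.825; Spearman's rho 0.19, exact p = 0.665, adjusted p = 0.752), with 0.03 when tumours 4 and 6 were left out. Efnb2 and Ephb4 gave 0.47 (exact permutation p = 0.262, adjusted p = 0.749; Spearman's rho 0.17, exact p = 0.703, adjusted p = 0.752), with -0.40 when tumours 4 and 8 were left out. The pair Sema3c and Plxnd1 was not computed because the tumours fell into separate clusters in at least 1 of the genes (a gap of over 50 percent of the range), and pairs with Sema3a, Sema3e or Ephb2 lacked a detected or measured partner.

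Of 14 relations between a member and a marker list 9 were computed, and 1 passed. The members and lists were chosen with earlier results of these data known, which the p-values do not take into account. Unc5b followed the mean of the endothelial markers over the tumours, with r = 0.92 (exact permutation p = 0.00164, adjusted p = 0.0147) and Spearman's rho 0.93 (exact p = 0.00223, adjusted p = 0.0201). Both were lowest in tumour 1 (Unc5b at 6.07, markers at -0.66) and highest in tumour 4 (6.96 and 0.71). Without these tumours r was 0.70 (exact permutation p = 0.0917, n = 6). With a single tumour left out, which was tried after seeing the data, the call was lost without tumour 1 (r = 0.88) or tumour 4 (r = 0.86; exact permutation, adjusted p = 0.118 for both), and it was kept without any other (r between 0.92 and 0.94, highest adjusted p = 0.0464). For Ephb4 and the same markers r was 0.71 (exact permutation p = 0.0562, adjusted p = 0.253; Spearman's rho 0.64, exact p = 0.0962, adjusted p = 0.433), and 0.36 without tumours 1 and 4. The other 7 computed relations, of Efnb2 and Sema3g with endothelium, of Plxnc1, Sema4a and Sema4d with macrophages, and of Slit2 and Sema3c with fibroblasts and pericytes, had adjusted p between 0.597 and 0.918 (exact permutation). Relations of Plxnd1 with endothelium, of Slit3 with fibroblasts and of Epha4 with Schwann cell and glia markers were not computed, since the tumours fell into separate clusters, nor were those of the undetected Sema3b and Plxnb3.

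**Figure D5:**
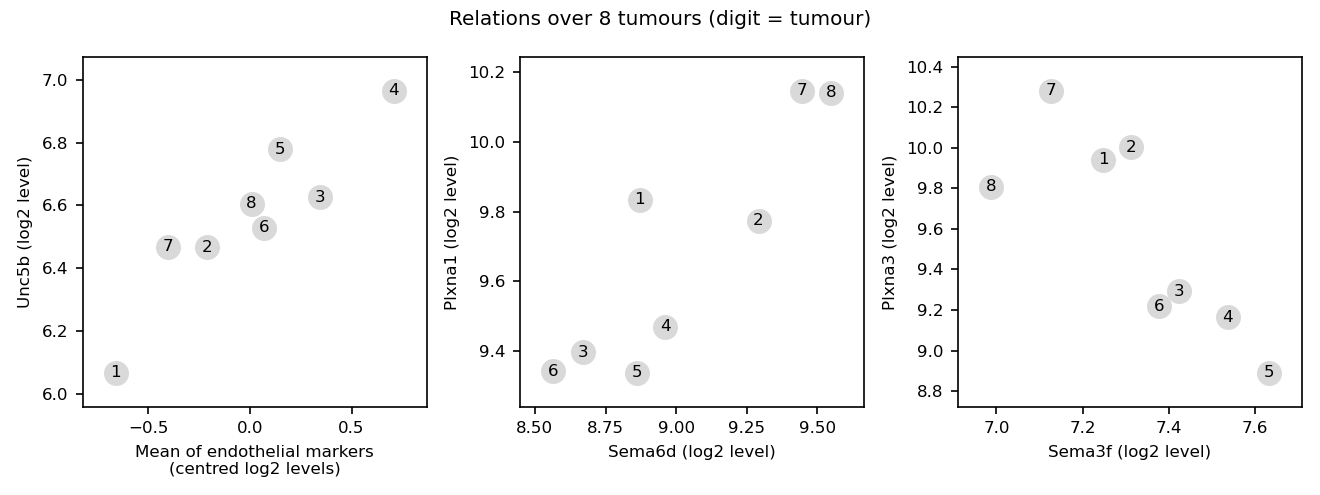
Each panel plots 1 relation over the 8 tumours, marked by their digits: Unc5b against the mean of endothelial markers (r = 0.92), Plxna1 against Sema6d (r = 0.88) and Plxna3 against Sema3f (r = -0.82), all in log2 units. Tumours 1 and 4 are the ends of the left panel, and only that relation passed after adjustment.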

How the data were processed

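Gene expression was measured on 8 arrays, 1 per tumour. The deposited values are log2 levels of 41345 probe sets that the authors made with Partek 6.5 and RMA (the submitters' processing notes do not say what each tool did). The values run from 2.07 to 13.61, from which the log2 scale was read. Not given in the sources used here: other options and the genome build. Array medians lay between 5.63 and 5.75. The platform annotation gives 23521 probe sets 1 symbol, 1814 several and 16010 none. Each gene was read from the probe set with 1 symbol and the highest mean.

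Detection was tested with limma 3.58.1 (R 4.3.3; trend and robust prior) on the level minus the 95th percentile of 1440 receptor probe sets of the same array, over all 22180 genes. Relations and plots were made in Python 3.11.15 (scipy 1.17.1, numpy 2.4.6, matplotlib 3.10.9, pandas 2.3.3). A relation was not computed where the largest gap in either measure exceeded 50 percent of its range with at least 2 tumours on each side. Both steps were tested on simulated data with independent normal noise. For detection, every simulated gene without signal was placed below the background, so this does not measure false calls in the real arrays.

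Alternatives were the mean of all probe sets, 2 other scalings, 3 other background levels, 2 other SD thresholds, Spearman's rho, and leaving out each tumour (for relations added after seeing the data). Values are given for the detected member with the largest SD in each family, the 12 with the largest SD, undetected members, relations past the threshold and the 5 most variable other pathway genes. Other genes were named with their values in view. The members and lists were chosen with earlier results of these data known.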

Additional observations from a re-analysis of the deposited data

Results flagged for a closer look

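In 7 of the 64 members 1 tumour lay apart from the other 7 by Dixon's criterion (a gap of more than 0.526 of the range), which is set to flag about 5% of groups by chance. This count includes undetected members, and no share over all genes, detected or not, stands beside it. Among detected members these were 4 of 54 (7.41%), beside 6.95% of all detected genes. Tumour 6 was apart in Efna5 (10.31, next highest 9.37), Epha8 (8.22, next highest 6.69) and the undetected Robo3 (5.67, next highest 4.70). Tumour 4 was apart in Ephb4 (7.30, next highest 6.47) and in the undetected Sema3b (7.35, next highest 5.63) and Plxnb3 (6.05, next highest 5.27). Tumour 8 was apart in Sema3g (9.04, next highest 7.05). In each case the tumour was above the others. The mean of the sympathetic neuron markers was apart in tumour 6 (-2.07, next lowest -0.23).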

How the results depend on the processing

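The number of detected members was 54 under the mean of all probe sets, both scalings and without any 1 tumour, 59 with the background at the 90th percentile and 64 at its median, but 34 at the 99th percentile, where 41.9% of all genes were detected. Of the 20 members that lost their call there, Ephb1 and Unc5b were at -0.24 and -0.028 relative to background, and Ntn1, Epha3 and Unc5d at -0.77, -0.67 and -0.64. Detected pathway genes numbered 40 to 60 over these settings and 52 to 54 without 1 tumour. Members with a large SD numbered 26 or 27 under the other scalings and probe set rule, 21 to 27 without 1 tumour, 37 above the 95th percentile of receptor genes (28.6% of all detected genes) and 3 at an SD of at least 1. No ligand and receptor pair passed except with arrays quantile normalized again, where 2 did, Sema6d with Plxna1 (r = 0.89, exact permutation adjusted p = 0.0484) and Sema3f with Plxna3 (r = -0.84, adjusted p = 0.0484); the cause was not tested. With arrays centred on their medians neither passed. There r was 0.87 for Sema6d and Plxna1 (exact permutation, adjusted p = 0.0680) and -0.92 for Sema3f and Plxna3 (adjusted p = 0.0509). With the mean of all probe sets, r was 0.77 for Sema6d and Plxna1 (exact permutation, adjusted p = 0.206). For Sema3f and Plxna3 it was then -0.82 (exact permutation, adjusted p = 0.192). The relation of Unc5b with endothelial markers passed under each scaling, the probe set rule and Spearman's rho, but not without tumour 1 or tumour 4. No paired analysis was possible because the labels give 1 group.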

Other observations

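Dock1, Mical2 and Ntng2 are pathway genes outside the member families, and their values were chosen after they were seen from among those with the highest level in tumour 4 or 6. Dock1, an exchange factor for Rac that acts downstream of Dcc, was highest in tumour 4 (8.18) and lowest in tumour 1 (5.98). Mical2, of the family of enzymes that link plexins to actin, was highest in tumour 6 (7.92) and lowest in tumour 2 (5.66). Ntng2, a relative of Ntng1, was not detected on the average of the tumours but was at 7.68 in tumour 6, where Ntng1 was lowest (4.57).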
